A study of Mus musculus with 18 samples.

Results

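CD103 cells and CD11b cells sorted from the lungs of the same groups of mice were compared across the transcriptome, first over both genotypes and then apart within WT and within BRAF animals. The comparison takes the 8 arrays whose labels name a lung population out of the 18 arrays of the series, 4 of CD103 cells and 4 of CD11b cells. Each population was hybridised from 2 WT and 2 BRAF samples, so the difference between the populations, and whether it depends on genotype, can both be read from these arrays. The comparison addresses whether cells carrying the mutant kinase keep the separation of the 2 populations.

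The mice of the lung arrays were 14 weeks old and unmanipulated at organ harvest, and the cells were sorted by FACS from dissected tissue. All animals carried the conditional allele BRAFV600E(CA-flox). The WT littermates were CD11c-Cre(neg) and the BRAF animals were CD11c-Cre(positive), so the mutation was limited to cells with a history of CD11c promoter activity. The labels give CD103+ or CD11b+ as the cell type and name no further gate. They do not state whether numbered samples are separate animals, and p-values therefore measure the spread between samples. That spread was estimated for each gene over all 18 arrays of the series, bone marrow-derived and liver cells included. RNA from sorted cells was read in bulk, where fewer cells of a type and less RNA per cell cannot be told apart.

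CD103 is the integrin encoded by Itgae, and in the lung it marks the type 1 conventional dendritic cell, which needs the transcription factors IRF8 and BATF3, carries the chemokine receptor XCR1 and cross-presents antigen from dead cells to CD8 T cells. CD11b is the integrin encoded by Itgam and marks a second lung dendritic cell, supported by IRF4, that favours presentation to CD4 T cells. CD11b is shared with monocytes and macrophages, so a CD11b gate can hold those cells as well.

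Values are log2 intensities of the array, and a difference of 1 on that scale is a 2-fold change. A gene was called where limma's moderated test gave a Benjamini-Hochberg adjusted p under 0.05 over 15365 genes. Array values are given for WT samples 1 and 3 and then for BRAF samples 1 and 2. Median intensity on the 8 lung arrays ranged from 93.7 to 102.5, and the number of arrays limits the precision. The interquartile range of log2 intensity was 2.41 on BRAF CD103 sample 1 and 2.64 to 2.96 on the other lung arrays. Across genes that array correlated at 0.946 with BRAF CD103 sample 2 and at 0.940 and 0.943 with BRAF CD11b samples 1 and 2. Xist read 11.67 to 12.29 on 6 of the lung arrays and 5.20 and 5.40 on the BRAF arrays numbered 2, where the Y-linked Eif2s3y read 8.89 and 8.72. Both WT arrays numbered 3 had Xist together with Eif2s3y at 7.47 and 7.31, against 3.43 to 4.07 on the other 4 arrays. Same-numbered CD103 and CD11b samples thus carried alike sex-linked signals, and the labels give no sex.

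The sorted populations carried the markers of their gates. Itgae read 11.42 and 12.18 in WT CD103 cells and 10.60 and 11.84 in BRAF CD103 cells, against 6.90 and 6.57 in WT CD11b cells and 5.74 and 6.26 in BRAF CD11b cells. Itgam read 6.87 and 6.90 in WT CD103 cells and 8.39 and 8.21 in BRAF CD103 cells, against 10.73 and 10.65 in WT CD11b cells and 11.43 and 10.68 in BRAF CD11b cells. Neither gene overlapped between the populations, and because both proteins defined the gates these values check the sort. Xcr1, which was not a gate in the labels, read 12.58 and 12.42 in WT CD103 cells and 12.22 and 12.43 in BRAF CD103 cells, and 6.92 and 7.45 in WT CD11b cells and 7.21 and 7.62 in BRAF CD11b cells. It stood apart on all 8 arrays by 5.12 ± 0.26 (SE, limma adjusted p = 8.26e-09). Cd209a, the lectin DC-SIGN of CD11b dendritic cells, read 10.99 and 11.30 in WT CD103 cells and 8.09 and 9.56 in BRAF CD103 cells. In CD11b cells it read 12.95 and 12.91 in WT and 11.47 and 12.75 in BRAF. The CD11b arrays were all above the CD103 arrays, by 2.53 ± 0.35 (SE, limma adjusted p = 0.0003). Within WT alone Cd209a was not called (adjusted p = 0.0609 by limma), and with the replicate number as a block it was (adjusted p = 0.0119 by limma).

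Over both genotypes 867 of 15365 genes were called, 5.64% of those tested, with 386 higher in CD103 cells (2.51%) and 481 higher in CD11b cells (3.13%). Without regard to the test, the 4 CD103 arrays lay above the 4 CD11b arrays at 744 genes (4.84%) and below them at 755 genes (4.91%). The median difference over all genes was 0.03.

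On the CD103 side the orphan receptor Gpr33 had the largest difference, at 5.68 ± 0.19 (SE, limma adjusted p = 2.17e-10). Gpr33 read 11.74, 11.37, 11.32 and 11.65 in CD103 cells and 6.36, 5.70, 5.52 and 5.77 in CD11b cells. The populations formed separate bands, and in each population the WT and BRAF arrays overlapped. The peptidase gene Naalad2 (5.11 ± 0.28, SE) and the signalling adaptor Gcsam (5.10 ± 0.19, SE) came after the gate gene Itgae (5.14) and Xcr1. Naalad2 read 9.33, 9.34, 7.33 and 8.78 in CD103 cells, with BRAF sample 1 the lowest, and between 3.40 and 3.92 in CD11b cells.

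Further genes called higher in CD103 cells, among the 15 with the largest change and no overlap between arrays, were the orphan receptor Gpr141b (4.22), the cytoskeletal septin Septin3 (4.18), the dead-cell receptor Clec9a (4.01), the adaptor Clnk (3.91), the Ly49 receptor Klra5 (3.79), the intracellular Fc receptor-like Fcrla (3.75), Gm1965 (3.69), the tight-junction claudin Cldn1 (3.68), the protocadherin Pcdh7 (3.62) and the phospholipase Plce1 (3.52). Cldn1 was the member of this group whose level varied most in the low population. It read 11.02 and 10.27 in WT CD11b cells but 5.98 and 8.04 in BRAF CD11b cells, against 12.80, 12.83, 11.62 and 12.78 in CD103 cells. Its difference was 2.17 in WT (limma adjusted p = 0.0989, and 0.0392 with the replicate block) and 5.19 in BRAF (limma adjusted p = 0.000484), and the difference between these, 3.02, did not pass the test.

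On the CD11b side Retnla, a resistin-like protein secreted by alternatively activated myeloid cells, read 10.31 and 11.02 in WT CD11b cells and 7.94 and 10.64 in BRAF CD11b cells. In CD103 cells it read 4.74 and 4.22 in WT and 6.70 and 5.25 in BRAF. The difference was -4.75 ± 0.47 (SE, limma adjusted p = 1.43e-05). No array of one population reached the other, and both BRAF CD103 samples were above both WT CD103 samples. Within BRAF alone it was called at -3.31, and that call was lost without BRAF CD11b sample 2 or BRAF CD103 sample 2 (highest limma adjusted p = 0.336), with values from -4.66 to -1.97. Ptgs2, the inducible cyclooxygenase that starts prostaglandin synthesis, read 11.64, 11.52, 10.57 and 10.14 in CD11b cells and 7.21, 5.61, 7.94 and 6.20 in CD103 cells, a difference of -4.23 ± 0.46 (SE, limma adjusted p = 3.68e-05). The populations did not overlap at Ptgs2, and for Retnla and Ptgs2 alike this was a condition of being named here.

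The other genes of this group were Fcrls (-3.88), the membrane glycoprotein Emb (-3.57), Ifitm6 of the interferon-induced transmembrane family (-3.37), the adhesion receptor Adgre4 (-3.32), Cd300ld (-3.30), Ms4a7 (-3.25), Tmem176a (-3.22), the phospholipid transfer protein Pltp (-3.20), the lectin Clec4a1 (-3.16), the lectin Cd209c (-3.13), Ms4a4c (-3.09) and the C3a receptor C3ar1 (-3.04), beside Itgam itself. Emb read 7.41 and 4.16 in the WT CD103 samples and 8.35 and 7.07 in the BRAF CD103 samples, while all CD11b samples lay between 10.14 and 10.41. Genes of the Clec4a, Cd209, Ms4a, Klra and Ifi200 families have close copies, and probes may read more than 1 member.

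**Figure D1:**
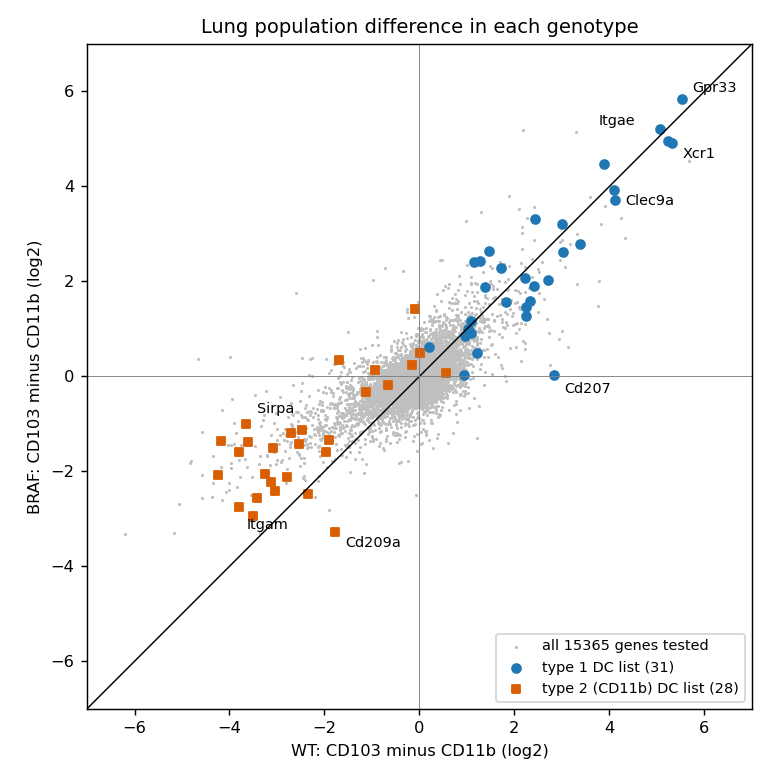
Each point is a gene, with its CD103 minus CD11b difference (log2) in WT on the x axis and in BRAF on the y axis; blue circles are the 31 genes of the type 1 list, orange squares the 28 of the type 2 list, grey dots all 15365 genes, and the diagonal marks equal differences. Blue circles spread along the diagonal up to Gpr33 at 5.53 and 5.84, whereas most orange squares lie between the diagonal and 0 on the BRAF axis.

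The genes with the largest difference on each side, and a further gene from each side whose upstream sequence holds an IRF-type match, are shown by the 250 bases before the transcription start in RefSeq, written on the gene's strand. The gene pairs were chosen after their values and matches were seen. Capitals mark matches on either strand to the composite ETS and IRF element (GGAA, any 2 bases, GAAA), the interferon-stimulated element (GAAA, any 2 bases, GAAA), the AP-1 site TGANTCA or the C/EBP site TTGCNNAA; the first and second share their GAAA end and can overlap.
Gpr33, GRCm38.p6 chr12:52028064-52028313, minus strand: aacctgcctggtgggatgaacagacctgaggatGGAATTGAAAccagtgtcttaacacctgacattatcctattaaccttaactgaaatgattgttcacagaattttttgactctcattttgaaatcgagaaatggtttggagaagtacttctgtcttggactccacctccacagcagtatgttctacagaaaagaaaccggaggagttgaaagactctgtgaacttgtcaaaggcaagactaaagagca
Gpr141b, GRCm38.p6 chr13:19732952-19733201, minus strand: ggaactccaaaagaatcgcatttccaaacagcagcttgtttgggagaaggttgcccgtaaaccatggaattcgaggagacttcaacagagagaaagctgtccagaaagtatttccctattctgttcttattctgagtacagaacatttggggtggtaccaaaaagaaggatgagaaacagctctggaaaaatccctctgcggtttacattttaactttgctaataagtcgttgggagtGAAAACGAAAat
Retnla, GRCm38.p6 chr16:48842359-48842608, plus strand: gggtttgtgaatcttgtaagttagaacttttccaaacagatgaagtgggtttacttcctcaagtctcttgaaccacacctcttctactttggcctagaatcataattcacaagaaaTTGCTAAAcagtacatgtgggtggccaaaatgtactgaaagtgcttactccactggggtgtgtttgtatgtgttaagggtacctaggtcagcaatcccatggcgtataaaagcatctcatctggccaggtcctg
Ifitm6, GRCm38.p6 chr7:141016893-141017142, minus strand: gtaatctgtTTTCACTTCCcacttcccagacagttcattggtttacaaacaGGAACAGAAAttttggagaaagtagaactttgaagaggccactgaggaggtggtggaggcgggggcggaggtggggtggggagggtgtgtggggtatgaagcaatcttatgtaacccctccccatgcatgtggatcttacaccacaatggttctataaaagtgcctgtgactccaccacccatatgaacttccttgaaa
Gpr33 holds the ETS and IRF element starting at -217, Gpr141b the interferon-stimulated element at -12, Retnla the C/EBP site at -134, and Ifitm6 the ETS and IRF element at -241 and -199. Of 12142 tested genes with an upstream window, 2.43% held the ETS and IRF element, 3.14% the interferon-stimulated element, 6.07% the AP-1 site and 9.27% the C/EBP site in any of their windows. Among the 311 such genes called higher in CD103 cells the shares were 2.57%, 5.79%, 8.04% and 10.3%, and among the 377 called higher in CD11b cells they were 4.77%, 8.75%, 8.75% and 15.9%. All 4 shares were higher on both sides than over all genes. On the CD103 side the ETS and IRF element (2.57% against 2.43%) and the C/EBP site (10.3% against 9.27%) were near the shares over all genes. These are descriptions of letters in a short window, with no test.

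Type 1 dendritic cell genes separated the populations in both genotypes. Of 31 genes measured, 27 were called higher in CD103 cells and 0 lower, against 2.51% higher over all genes, and the median difference was 2.01. The list's entry Tlr11 was matched to Tlr12, so Tlr11 itself was not read. Within WT 20 were called higher, where 1.38% of all genes were, and within BRAF 16 were, where 0.905% were. The medians were 2.24 in WT and 2.08 in BRAF, and every one of the 31 differences was above 0 in each genotype. The list's mean level was 10.75 and 10.88 in WT CD103 cells and 10.30 and 10.65 in BRAF CD103 cells, against 7.90 to 8.39 over the 4 CD11b arrays. On this list the populations stayed apart on every array. The list includes the marker Xcr1 and the gate gene Itgae, whose difference checks the sort.

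Members of the list with different roles moved alike. Irf8, the transcription factor that specifies the lineage, read 12.72, 12.52, 12.32 and 12.44 in CD103 cells and 9.87, 10.53, 10.80 and 10.15 in CD11b cells, a difference of 2.16 ± 0.35 (SE, limma adjusted p = 0.00109). Tlr3, the endosomal receptor for double-stranded RNA, differed by 3.09 ± 0.23 (SE, limma adjusted p = 8.03e-07) with 3.38 in WT and 2.79 in BRAF. Wdfy4, needed for cross-presentation, differed by 1.85 ± 0.34 (SE, limma adjusted p = 0.00325). Snx22, Btla, Ifi205, Ppt1, Rasgrp3, Ly75, Cadm1, Fzd1, Jaml and Rab7b were also called, with differences between 1.70 and 3.10, as was Cd24a at 1.63.

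The transcriptional regulator Id2 was called at 1.01, but the call was lost without WT CD11b sample 1, WT CD103 sample 3, BRAF CD11b sample 2 or BRAF CD103 sample 2 (highest limma adjusted p = 0.0607). Plet1 (2.16), Hepacam2 (1.78), Tlr12 (1.00) and Pianp (0.91) were called with all arrays, and their calls were each lost without BRAF CD103 sample 2 and without at least 3 other lung arrays (highest limma adjusted p between 0.0906 and 0.21). The 4 members not called were Batf3 (0.41), Cd36 (0.48), Cd8a (0.85) and Naaa (1.13, limma adjusted p = 0.0622). Batf3, the partner of IRF8 in this lineage, read 7.96, 8.74, 8.53 and 8.68 in CD103 cells and 7.91, 8.38, 7.65 and 8.31 in CD11b cells. Its ranges overlapped. Cd8a read 8.52 on WT CD103 sample 1 and between 5.73 and 6.73 on the other 7 arrays.

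Genes of the type 2, or CD11b, dendritic cell list separated the populations in the other direction, with a smaller median in BRAF. Of 28 genes measured, 19 were called higher in CD11b cells and 0 higher in CD103 cells, against 3.13% of all genes, with a median of -2.31. Within WT 18 were called (2.37% of all genes), and within BRAF 8 were (0.306% of all genes). The WT median was -2.62 and the BRAF median -1.41, and 23 of the 28 differences were smaller in size in BRAF. The WT count fell to 11 without WT CD103 sample 3, and the BRAF count fell to 4 without BRAF CD11b sample 1 or without BRAF CD103 sample 2. The mean list level was 8.12 and 7.28 in WT CD103 cells and 8.18 and 8.07 in BRAF CD103 cells, and it was 10.06 and 10.002 in WT CD11b cells and 9.32 and 9.52 in BRAF CD11b cells. Both BRAF CD11b samples were below both WT CD11b samples, the CD103 samples of the 2 genotypes overlapped, and the populations did not. This list likewise includes the marker Cd209a and the gate gene Itgam, whose difference checks the sort.

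The lectin Mgl2, a marker of this dendritic cell, read 12.19 and 12.28 in WT CD11b cells and 9.55 and 10.96 in BRAF CD11b cells, against 9.27, 8.37, 8.01 and 7.37 in CD103 cells. Its difference was -2.99 ± 0.42 (SE, limma adjusted p = 0.000361), and the gap to CD103 cells was seen on all arrays. S100a4, a calcium-binding protein of motile cells, had near equal differences of -2.35 in WT and -2.48 in BRAF and was called in each (limma adjusted p = 0.000428 and 0.000444). Csf1r, the receptor for the macrophage growth factor CSF1, read 11.65 and 11.88 in WT CD11b cells, 11.49 and 11.09 in BRAF CD11b cells, 8.55 and 7.79 in WT CD103 cells and 10.03 and 9.78 in BRAF CD103 cells. Csf1r was therefore higher on both BRAF CD103 arrays than on both WT CD103 arrays, and its interaction of 2.22 was not called (limma adjusted p = 1).

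Sirpa, the receptor for CD47 used to gate this dendritic cell, read 9.92 and 6.70 in WT CD103 cells and 11.10 and 10.43 in BRAF CD103 cells, against 11.93, 11.98, 11.99 and 11.53 in CD11b cells. It was called at -2.32, a value that lay between -3.13 and -1.52 when each lung array was left out, and the call was lost without BRAF CD11b sample 1 or BRAF CD103 sample 2 (highest limma adjusted p = 0.0604). Irf4 was called at -1.62, and its call was lost without WT CD11b sample 1, WT CD103 sample 1, BRAF CD11b sample 2 or BRAF CD103 sample 1 (highest limma adjusted p = 0.0879). Members not called were Cd209d, Ltb, Klf4, Pdcd1lg2, Esam, Il1r2, Ccl17, Notch2 and Ccr6, with differences between -2.30 and 0.67. Ccl17, a chemokine for CCR4-bearing T cells, read 12.37, 12.14, 10.31 and 12.51 in CD103 cells and 12.41, 12.28, 8.76 and 11.20 in CD11b cells, so it was high in both populations and lowest on the BRAF arrays numbered 1.

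**Figure D2:**
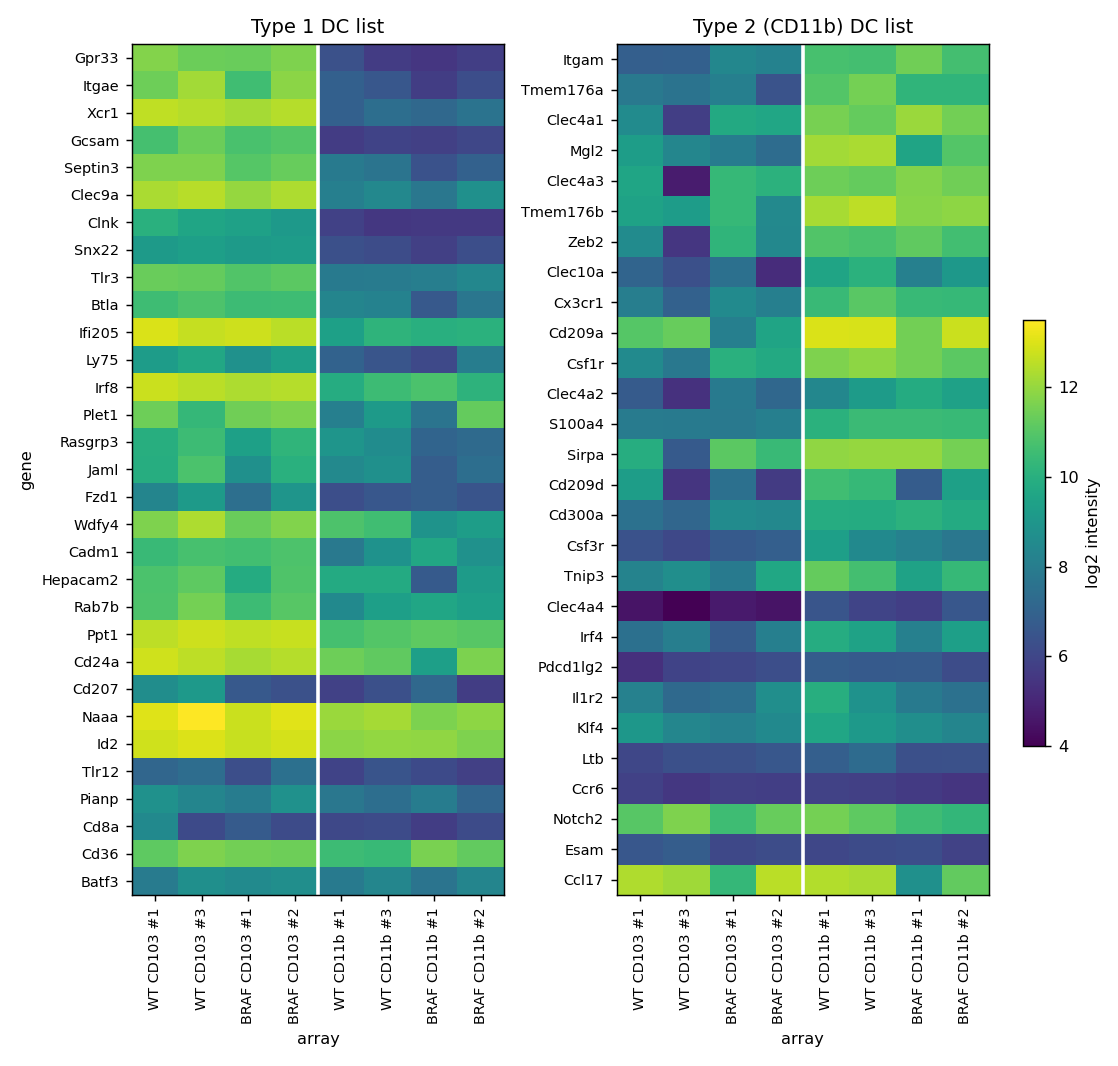
Each row is a gene of the type 1 list (left) or of the type 2 list (right), each column 1 of the 8 lung arrays, and the colour its log2 intensity; the white line divides CD103 from CD11b arrays. Xcr1 lies between 12.22 and 12.58 on the CD103 arrays and between 6.92 and 7.62 on the CD11b arrays, and Sirpa on the right reads 11.10 on BRAF CD103 sample 1.

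Within WT 576 genes were called (3.75%), 212 higher in CD103 cells and 364 higher in CD11b cells. Within BRAF 186 were called (1.21%), 139 higher in CD103 cells and 47 higher in CD11b cells. The WT count was 269 without WT CD11b sample 3, 260 without WT CD11b sample 1 and 251 without WT CD103 sample 3, where 140 genes were higher in CD103 cells and 111 higher in CD11b cells. The BRAF count was 89 without BRAF CD11b sample 1 and 76 without BRAF CD103 sample 2. Of the 212 genes called higher in CD103 cells in WT, 99 were also called in BRAF (46.7%, and 71.2% of the 139 called there). Of the 364 called higher in CD11b cells in WT, 40 were also called in BRAF (11%, and 85.1% of the 47 called there). These counts do not show that the effects differ, since a gene can pass in one genotype and narrowly miss in the other.

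Both sides kept their direction. All 386 genes called higher in CD103 cells over both genotypes had a positive difference in each genotype, and 479 of the 481 called higher in CD11b cells had a negative one, a count that the choice over both genotypes largely fixes. The 386 genes had median differences of 1.16 in WT and 1.14 in BRAF, and 220 of them (57%) were smaller in BRAF. For the 481 genes the medians were -1.65 in WT and -0.97 in BRAF, and 424 of them (88.1%) were smaller in size in BRAF. Over all genes tested 8988 of 15365 were smaller in size in BRAF. Genes chosen by their call within WT, which favours a large WT value, had medians of 1.68 in WT and 1.21 in BRAF on the CD103 side (167 of 212 smaller in BRAF) and of -1.99 and -0.97 on the CD11b side (355 of 364 smaller in size). Across all 15365 genes the WT and BRAF differences, which share no arrays, had Pearson's r = 0.69 and Spearman's rho = 0.47; genes are not independent replicates.

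The direct test of the genotype by population difference called 0 of 15365 genes (0%). By limma 372 genes had an unadjusted p under 0.05, the smallest adjusted p was 0.0555, and the median standard error of this difference was 0.40. Limma with a variance trend and robust priors called 2 genes, and with array weights 3. With the replicate number as a block 1 gene, Ct55, was called (limma adjusted p = 0.011). With the lung arrays alone 0 were called, and the smallest limma adjusted p was 0.502. Leaving out 1 lung array gave 22 calls without WT CD103 sample 1, 17 without BRAF CD11b sample 2, 12 without BRAF CD103 sample 2, 2 without WT CD103 sample 3, 1 without BRAF CD11b sample 1 and 0 without each of the other 3. The count of calls thus moved with single arrays.

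Ct55, a cancer/testis antigen gene, read 7.77 and 7.67 in WT CD103 cells and 5.27 and 5.95 in BRAF CD103 cells, against 4.93 and 5.00 in WT CD11b cells and 4.99 and 5.77 in BRAF CD11b cells. Its difference was 2.75 in WT and 0.23 in BRAF, and the WT CD103 arrays stood above the other 6. Cd209f, a C-type lectin, read 8.57 and 9.59 in WT CD11b cells and 4.35 and 5.07 in BRAF CD11b cells, against 4.72, 4.10, 6.15 and 3.98 in CD103 cells. The WT CD11b arrays alone were high. Both genes had a limma adjusted p of 0.0555 for the interaction, which was -2.52 for Ct55 and 5.02 for Cd209f. With the lung arrays alone limma's adjusted p was 0.94 for each gene. With quantile normalization it was 0.348 for Ct55 and 0.105 for Cd209f.

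Cd207, the lectin langerin that marks Langerhans cells and part of the CD103 population, read 8.67 and 9.14 in WT CD103 cells and 6.64 and 6.36 in BRAF CD103 cells. In CD11b cells it read 5.85 and 6.31 in WT and 7.23 and 5.74 in BRAF. The population difference was 2.82 in WT (limma adjusted p = 0.000319) and 0.02 in BRAF, where the arrays overlapped. The interaction of -2.80 was not called (limma adjusted p = 0.29), though it was without BRAF CD11b sample 2 (limma adjusted p = 0.00571). Among the 31 type 1 genes Cd207 was the one with the smallest BRAF difference.

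The prostaglandin-degrading enzyme Hpgd read 8.08 and 7.07 in WT CD103 cells and 10.54 and 10.17 in BRAF CD103 cells, while CD11b cells lay between 11.36 and 11.97. Ccl9, a chemokine for CCR1-bearing cells, read 7.73 and 7.18 in WT CD103 cells and 11.04 and 9.77 in BRAF CD103 cells, while CD11b cells lay between 11.11 and 11.86. Both BRAF CD103 samples were closer to the CD11b samples than either WT CD103 sample was. Adam19, a membrane metalloprotease, read 9.95, 10.08, 9.97 and 10.30 in CD103 cells, 9.48 and 9.57 in WT CD11b cells and 7.62 and 7.77 in BRAF CD11b cells, so here the BRAF CD11b samples stood apart. The remaining genes among the 10 with the smallest p were Pir (-2.16), Adgb (-2.03), Gnao1 (-2.50) and Plxna4 (1.57). In the fit on all arrays with neither weights nor block, limma's adjusted p for these 10 genes lay between 0.0555 and 0.49. Ct55 and Cd209f were the 2 genes called with a variance trend and robust priors (limma adjusted p = 0.0295), and they were called with array weights (0.0136) together with Adam19 (0.0357).

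**Figure D3:**
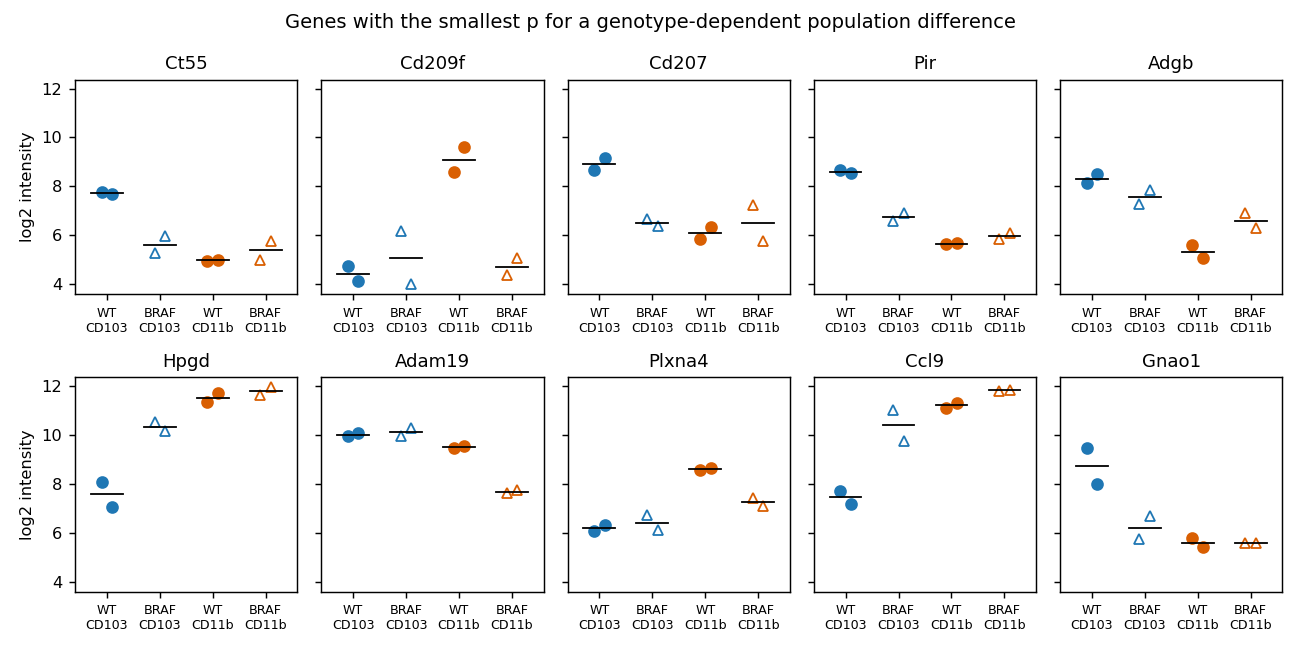
Log2 intensity (y axis) of the 10 genes with the smallest p for a genotype-dependent population difference, by genotype and population (x axis); points are arrays, filled circles WT and open triangles BRAF, blue CD103 and orange CD11b, and bars are means of 2. Hpgd and Ccl9 on BRAF CD103 arrays (10.17 to 10.54 and 9.77 to 11.04) lie between the WT CD103 and the CD11b arrays.

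The median level of the 481 genes called higher in CD11b cells was 7.40 and 6.71 in WT CD103 cells and 7.89 and 7.58 in BRAF CD103 cells, and it lay between 8.74 and 9.05 in CD11b cells. In CD103 cells 371 of these genes (77.1%) were higher in BRAF than in WT, with a median of 0.48, where 35% of all genes were higher and the median was -0.08. In CD11b cells 205 of them (42.6%) were higher in BRAF, with a median of -0.10, where 50.5% of all genes were. The 481 genes were chosen on these same arrays, and 69.6% of them were called within WT against 9.56% within BRAF. That choice favours genes with a large WT difference, so all genes are not a like comparison. The 28 type 2 genes had a BRAF minus WT median of 0.30 in CD103 cells (18 of 28 higher in BRAF) and of -0.53 in CD11b cells (7 of 28 higher in BRAF).

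Macrophage and monocyte genes were mostly on the CD11b side. The shares of all genes called higher in CD11b cells were 3.13% over both genotypes, 2.37% within WT and 0.306% within BRAF. Of 23 general macrophage genes measured, 13 were called higher in CD11b cells over both genotypes, 11 within WT and 0 within BRAF, where 5 had an unadjusted p under 0.05 by limma. The medians were -1.53, -2.15 and -0.81. The 13 calls became 5 without BRAF CD103 sample 2, 7 without WT CD11b sample 3 or BRAF CD11b sample 1 and 8 without WT CD103 sample 3, and the 11 WT calls became 3 without WT CD103 sample 3 and 4 without either WT CD11b sample. The BRAF median was -1.73, with 3 genes called, without BRAF CD103 sample 1 and -0.20 without BRAF CD103 sample 2. Their mean level was 8.71 and 7.46 in WT CD103 cells, 10.52 and 9.15 in BRAF CD103 cells and 10.05 to 11.09 in CD11b cells. BRAF CD103 sample 1 lay within the CD11b range. Adgre1, which encodes the macrophage antigen F4/80, read 8.58 and 6.92 in WT CD103 cells and 10.32 and 9.42 in BRAF CD103 cells, against 11.05 to 11.44 in CD11b cells, a difference of -2.47 ± 0.29 (SE, limma adjusted p = 7.45e-05).

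Of 21 monocyte genes measured, 13 were called higher in CD11b cells over both genotypes, 13 within WT and 3 within BRAF, with medians of -1.85, -2.46 and -0.92. The count over both genotypes was 8 without BRAF CD11b sample 1 or BRAF CD103 sample 2, the WT count was 4 without WT CD103 sample 3, 5 without WT CD11b sample 1 and 6 without WT CD11b sample 3, and the BRAF count was 1 without BRAF CD11b sample 1. Lyz1, a lysozyme, went against the smaller BRAF difference, at -1.91 in WT and -2.82 in BRAF. Of 20 interstitial macrophage genes measured, 15 were called higher in CD11b cells over both genotypes, 14 within WT and 0 within BRAF, where 8 had an unadjusted p under 0.05 by limma. The phosphatidylserine receptor Timd4 was the 1 member called higher in CD103 cells, a call that was not kept each time an array was left out. Their medians were -2.79 in WT and -0.72 in BRAF, and without BRAF CD103 sample 2 the BRAF median was 0.016. The count of 15 was 9 without WT CD103 sample 3, BRAF CD11b sample 1 or BRAF CD103 sample 2, the WT count was 5 without WT CD11b sample 3 or WT CD103 sample 3, and the BRAF count was 5 without BRAF CD103 sample 1. The complement gene C1qa, of this list, read 7.15 and 6.73 in WT CD103 cells and 10.02 and 7.68 in BRAF CD103 cells, against 10.34, 11.46, 11.43 and 10.11 in CD11b cells. It was high on BRAF CD103 sample 1, close to the lowest CD11b sample.

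Markers of other cells also stood out on single arrays. The 8 measured NK genes had a mean of 8.48 on WT CD103 sample 1 and 6.18 to 6.88 on the other 7 arrays, with Nkg7 at 11.34 against 5.69 to 7.01, and the 12 measured T cell genes had their highest mean, 7.44, on that same array. The 17 lung epithelial genes had a mean of 8.24 on BRAF CD103 sample 1 and 6.97 to 7.40 elsewhere, and the 14 hepatocyte genes 7.63 there and 6.02 to 6.70 elsewhere. The 13 B cell genes had a mean of 7.97 on WT CD11b sample 1 and 6.07 to 7.41 elsewhere. The 20 alveolar macrophage genes had means of 8.16 and 6.24 in WT CD103 cells, 8.93 and 8.27 in BRAF CD103 cells, 7.36 and 7.13 in WT CD11b cells and 7.95 and 9.15 in BRAF CD11b cells, so both BRAF samples were above both WT samples in each population. Their part in the population differences was not tested. Without both BRAF arrays numbered 1, the type 2 median within BRAF was -1.34 with 5 genes called, and the type 1 median was 2.28 with 12 called.

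**Figure D4:**
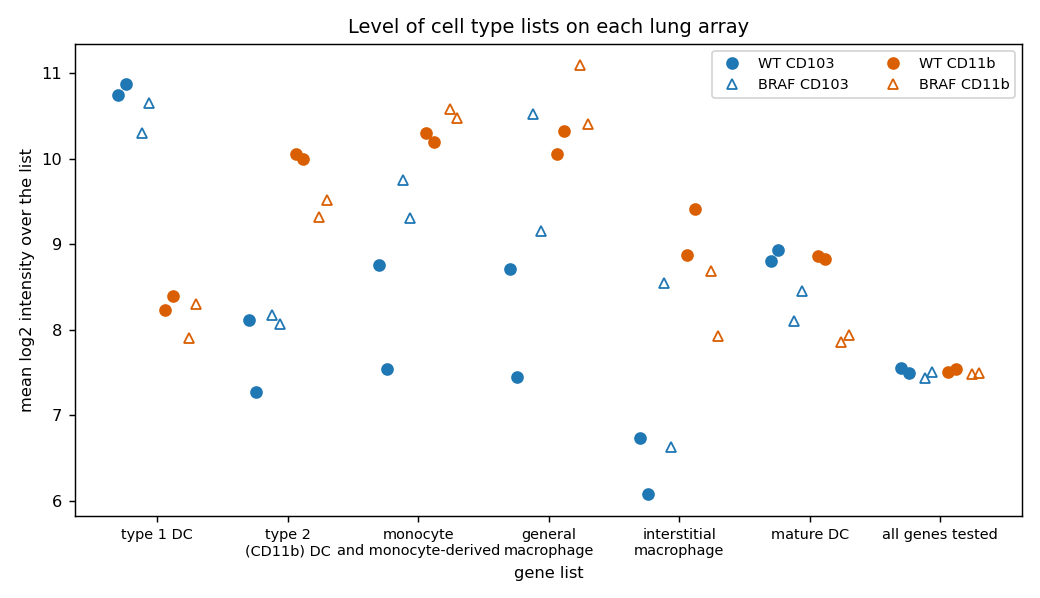
Mean log2 intensity over each gene list (y axis) on each lung array; filled circles are WT, open triangles BRAF, blue CD103 and orange CD11b. The type 1 list separates all CD103 from all CD11b arrays (10.30 to 10.88 against 7.90 to 8.39), whereas BRAF CD103 sample 1 reaches 10.52 on the general macrophage list, inside the CD11b range.

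A smaller part of the lineage transcription factors was called than of the type 1 and type 2 lists. For comparison, 2.51% of all genes were called higher in CD103 cells and 3.13% higher in CD11b cells. Of 35 lineage factors measured, 3 were called higher in CD103 cells, among them Irf8 and Id2, and 6 higher in CD11b cells. These were 1 and 3 without WT CD103 sample 3 or BRAF CD103 sample 2, and the first was 1 also without WT CD11b sample 1. Zeb2, a repressor needed by several myeloid lineages, read 8.56 and 5.50 in WT CD103 cells and 10.22 and 8.43 in BRAF CD103 cells, against 10.64 to 11.17 in CD11b cells, a difference of -2.69 ± 0.48 (SE, limma adjusted p = 0.00256). Cebpa, a myeloid factor, differed by -0.92 ± 0.17 (SE, limma adjusted p = 0.00321). The populations did not overlap at either gene.

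Genes shared by conventional dendritic cells leaned to the CD103 side, where 2.51% of all genes were called. Of 16 measured, 8 were called higher in CD103 cells and 0 lower, and 5 were without BRAF CD103 sample 2. Kit, the stem cell factor receptor, read 10.27, 10.97, 9.58 and 10.83 in CD103 cells and 8.18, 8.25, 6.28 and 7.002 in CD11b cells (2.98 ± 0.25, SE, limma adjusted p = 2.62e-06). Flt3, the growth factor receptor of the lineage, differed by 2.05 ± 0.24 (SE, limma adjusted p = 8.39e-05), with 1.498 in WT and 2.60 in BRAF. Both genes read lower in BRAF than in WT CD11b cells, with the lowest values on BRAF CD11b sample 1.

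Receptors for chemokines and for pathogen patterns were divided between the populations. The share of all genes called was 2.51% on the CD103 side and 3.13% on the CD11b side. Of 20 chemokine receptors measured, 3 were called higher in CD103 cells, namely Xcr1, Cxcr3 (2.94 ± 0.18, SE) and the gut-homing receptor Ccr9 (2.80 ± 0.31, SE), and 6 higher in CD11b cells. The latter was 2 without WT CD103 sample 3 and 3 without WT CD11b sample 3, BRAF CD11b sample 1 or BRAF CD103 sample 2. Cxcr3, the receptor for interferon-induced chemokines, read 10.24, 10.10, 9.90 and 10.14 in CD103 cells and 6.94, 7.38, 6.82 and 7.49 in CD11b cells, with an even gap in both genotypes. Cx3cr1, the fractalkine receptor of monocyte-related cells, differed by -2.65 ± 0.32 (SE, limma adjusted p = 9.01e-05), and its level was 8.06 and 6.94 in WT CD103 cells and 8.55 and 8.10 in BRAF CD103 cells.

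Of 25 Toll-like receptors and nucleic acid sensors measured, 2 were called higher in CD103 cells (2.51% of all genes) and 8 higher in CD11b cells (3.13%). Tlr3 was on the CD103 side, whereas Tlr1, a receptor for bacterial lipopeptide, was on the CD11b side (-1.59 ± 0.20, SE, limma adjusted p = 0.00014). Ddx58, the cytosolic RNA sensor RIG-I, was also on the CD11b side (-1.78 ± 0.25, SE, limma adjusted p = 0.000314). The count of 8 was 5 without any 1 of the 4 CD11b samples or WT CD103 sample 3, and the count of 2 was 1 without WT CD11b sample 1, WT CD103 sample 3, BRAF CD11b sample 2 or BRAF CD103 sample 2. Of 33 C-type lectins, 4 were called higher in CD103 cells, with Clec9a and Ly75 among them, and 16 higher in CD11b cells, and the list median was -1.76 in WT and -0.73 in BRAF.

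Chemokines were called on the CD11b side alone, with 8 of 31 higher there (5 without WT CD103 sample 3 or BRAF CD103 sample 2) and 0 higher in CD103 cells. Ccl7, a monocyte attractant, differed by -1.84 ± 0.32 (SE, limma adjusted p = 0.00185). Complement genes had 8 of 20 called higher in CD11b cells (3.13% of all genes) and 0 higher in CD103 cells (2.51%). Their medians were -1.30 in WT and -0.70 in BRAF. When an array was left out these were -1.42 to -0.68 in WT and -1.48 to -0.26 in BRAF, so the ranges overlapped. Of 11 Fc receptor genes, 4 were called higher in CD11b cells (2 without BRAF CD103 sample 2) and 1, Fcrla, in CD103 cells. Fcgr1, the high-affinity IgG receptor CD64 used to mark monocyte-derived cells, read 8.14, 8.996, 9.06 and 8.93 in CD11b cells, 6.31 and 6.03 in WT CD103 cells and 7.995 and 7.38 in BRAF CD103 cells. Its difference was -1.85 ± 0.26 (SE, limma adjusted p = 0.000375), with the BRAF CD103 samples between the other groups.

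Of 24 integrins, 4 were called higher in CD103 cells and 4 higher in CD11b cells, counts that include the gate genes Itgae and Itgam, and the second count was 2 without WT CD11b sample 3, either WT CD103 sample, BRAF CD11b sample 1 or BRAF CD103 sample 2. Itga8 (2.26 ± 0.26, SE, limma adjusted p = 7.14e-05) and Itga1, the collagen receptor chain (2.12 ± 0.29, SE, limma adjusted p = 0.000256), were on the CD103 side, and Itgb5 was on the CD11b side (-1.65 ± 0.28, SE, limma adjusted p = 0.00174). Of 19 junction genes 5 were called higher in CD103 cells (2.51% of all genes) and 0 lower (3.13%). Epcam, an epithelial adhesion molecule, read 10.09, 9.14, 8.001 and 9.20 in CD103 cells and 7.78, 6.70, 6.21 and 6.83 in CD11b cells (2.23 ± 0.33, SE, limma adjusted p = 0.000509), with no overlap.

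Antigen presentation genes differed little as groups. Of 15 MHC class II genes 2 were called, both higher in CD11b cells, namely the proteases Lgmn (-1.81 ± 0.33, SE) and Ctss (-0.93 ± 0.17, SE). Of 19 MHC class I and cross-presentation genes 1 was called on each side. Among all genes 2.51% were called higher in CD103 cells and 3.13% higher in CD11b cells. Cybb, the NADPH oxidase subunit gp91phox, read 10.25 and 7.20 in WT CD103 cells and 12.02 and 11.35 in BRAF CD103 cells, against 12.59 to 12.71 in CD11b cells, and differed by -2.44 ± 0.44 (SE, limma adjusted p = 0.00277). Its difference was -3.91 in WT and -0.97 in BRAF; the WT value was -2.39 without WT CD103 sample 3, and the interaction of 2.94 was not called with all arrays. Without WT CD103 sample 1 the interaction of Cybb was 4.47 and was called (limma adjusted p = 0.000972).

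Maturation genes had a median near 0, with more calls on the CD103 side. Of 26 measured, 5 were called higher in CD103 cells (2.51% of all genes) and 1 higher in CD11b cells (3.13%), with a median of 0.02. Serpinb6b, an intracellular serpin, read 8.56, 9.19, 10.33 and 10.38 in CD103 cells and between 6.10 and 7.11 in CD11b cells (2.85 ± 0.23, SE, limma adjusted p = 2.09e-06). It had the largest difference of this list toward CD103 cells in each genotype and read highest in BRAF CD103 cells. Il12b, the shared subunit of IL-12 and IL-23, differed by 1.46 ± 0.24 (SE, limma adjusted p = 0.00155), and BRAF CD103 sample 1, at 7.07, overlapped the CD11b range of 6.36 to 7.45.

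Calls among stress, ERK and interferon genes were mostly on the CD11b side. Over all genes 3.13% were called higher in CD11b cells over both genotypes, 2.37% within WT and 0.306% within BRAF. Of 25 stress and immediate early genes 3 were called over both genotypes, 6 within WT and 0 within BRAF, where 3 had an unadjusted p under 0.05 by limma. All calls were higher in CD11b cells, with medians of -1.01 in WT and -0.08 in BRAF. Gadd45b, a stress-induced gene, read 11.04 and 10.59 in WT CD11b cells, 8.63 and 8.50 in BRAF CD11b cells and 8.72, 8.58, 7.95 and 7.82 in CD103 cells. The WT CD11b samples were the high ones. The 6 WT calls of this list became 1 without WT CD11b sample 1 or WT CD103 sample 3 and 2 without WT CD11b sample 3, and the 3 over both genotypes became 1 without WT CD11b sample 1, WT CD103 sample 3, BRAF CD11b sample 1 or BRAF CD103 sample 2. The BRAF median was 0.09 without BRAF CD11b sample 1, 0.07 without BRAF CD11b sample 2 and 0.10 without BRAF CD103 sample 1, so its sign turned. Of 30 ERK feedback and target genes 3 were called over both genotypes, 6 within WT and 0 within BRAF, where 7 had an unadjusted p under 0.05 by limma. All calls were higher in CD11b cells, with medians of -0.62 in WT and -0.06 in BRAF. Within BRAF that median was -0.23 without BRAF CD11b sample 2 and 0.001 without BRAF CD11b sample 1, so its sign turned. The 6 WT calls became 1 without WT CD11b sample 1 or WT CD103 sample 3 and 3 without WT CD11b sample 3.

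Of 25 interferon response genes 1 was called higher in CD103 cells (2.51% of all genes) and 6 higher in CD11b cells (3.13%) over both genotypes. Within WT 5 were called and within BRAF 1, all higher in CD11b cells, with medians of -0.71 in WT and 0.14 in BRAF. The 5 WT calls became 2 without WT CD103 sample 3 and 3 without either WT CD11b sample, and the BRAF median was -0.24 without BRAF CD103 sample 2, -0.14 without BRAF CD11b sample 1 and 0.51 without BRAF CD103 sample 1. Rtp4, an interferon-induced chaperone of receptors, was called in both genotypes, at -2.50 in WT and -1.72 in BRAF (limma adjusted p = 0.000541 and 0.0183), and its BRAF call was lost without BRAF CD11b sample 2 or BRAF CD103 sample 1 (highest limma adjusted p = 0.195). Of 29 cell cycle genes 0 were called in any of the 3 comparisons and 0 had an unadjusted p under 0.05 by limma, and the median was 0.43 in WT and -0.19 in BRAF. The BRAF median was -0.85 without BRAF CD103 sample 2 and 0.58 without BRAF CD103 sample 1, so its sign turned as well.

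**Figure D5:**
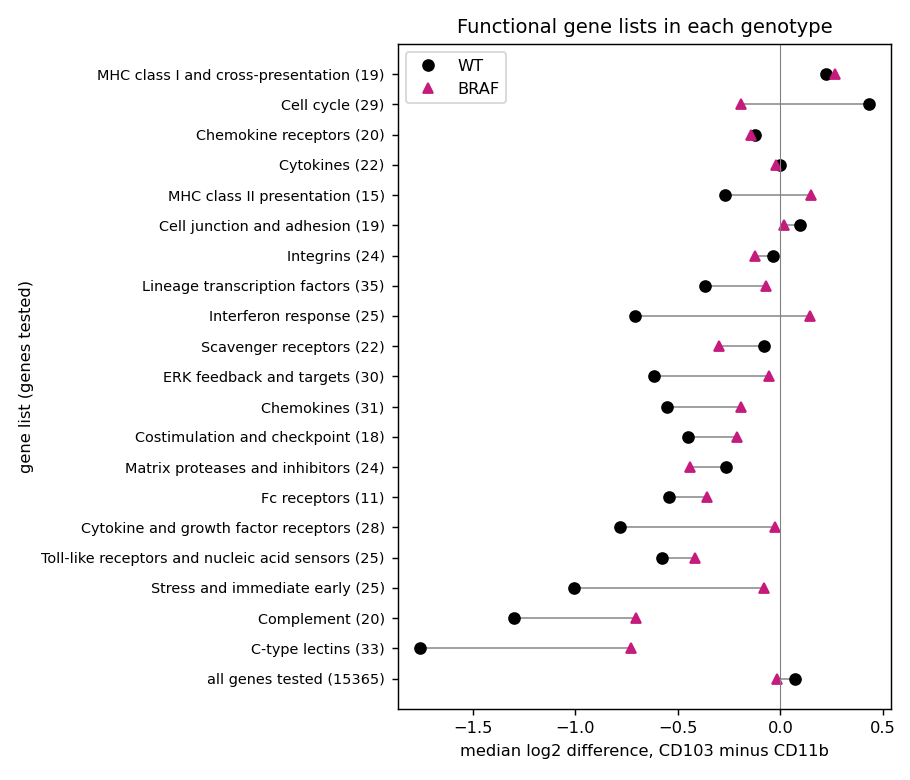
Median CD103 minus CD11b difference (log2, x axis) of each functional gene list (y axis, genes tested in parentheses), with black circles for WT and magenta triangles for BRAF. C-type lectins lie lowest in WT at -1.76 and at -0.73 in BRAF, and stress and immediate early genes at -1.01 and -0.08, while all genes lie at 0.07 and -0.02.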

How the data were processed

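RNA from sorted lung CD103+ and CD11b+ cells was hybridised as biotin-labelled total RNA to 1-colour gene arrays. The deposited values are linear intensities per probe set, from the series' value table; background correction, normalization and summarisation are not given in the sources used here. Of 24922 probe sets, 21425 were listed with 1 gene symbol, 1399 with several and 2098 were not listed. The probe set with the highest mean stood for a gene (921 of 19752 genes had over 1). Intensities were taken to log2, and 15365 genes above the 30th percentile on at least 2 arrays were tested.

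Group means were fitted on all 18 arrays with limma 3.58.1 in R 4.3.3 (10 residual degrees of freedom), with contrasts over both genotypes, within WT, within BRAF and between these, and Benjamini-Hochberg adjusted p under 0.05. The other groups contributed to the spread only. The code was tested on simulated data. Promoter windows were searched with pandas 2.3.3 and plots drawn with matplotlib 3.10.9, under Python 3.11.15.

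Replicate numbers were checked as pairs: over 15365 genes, deviations from the group means of same-numbered CD103 and CD11b arrays correlated at 0.159 (WT) and 0.22 (BRAF). An alternative took the number as a block.

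Genes were named by rule: the 4 markers, the 15 largest called changes each way without overlap between arrays, the 10 smallest interaction p-values, up to 6 smallest p-values per list, and all type 1 and type 2 dendritic cell list members. The gene lists (829 of 873 entries matched, 38 lists) and the comparison itself were chosen with earlier results of these data known. Alternatives covered normalization, centring, the filter, probe set averaging, variance model, array weights, the lung arrays alone, the block and leaving out arrays. Promoter windows came from RefSeq tables.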

Additional observations from a re-analysis of the deposited data

How the results depend on the processing

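The count over both genotypes was 580 to 898 when each lung array was left out, 897 with the replicate block and 1357 without the 2 arrays of narrowest spread (BRAF bone marrow-derived 2 and WT liver CD11b 3), an alternative chosen after seeing the data. Within WT it was 1280 with array weights, 916 without those arrays, 615 with the block and 251 to 610 when an array was left out. Within BRAF it was 122 with the lung arrays alone, 310 without those arrays, 216 with the block and 76 to 239 when an array was left out. The interaction count of 0 became 2 with a variance trend and robust priors, 3 with array weights, 1 with the block and 0 to 22 when an array was left out.

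When an array was left out, the type 1 median was 1.82 to 2.48 in WT and 1.84 to 2.67 in BRAF, with an interaction of -0.36 to -0.0091. The type 2 median was -2.81 to -2.14 in WT, with an interaction of 0.66 to 1.18. The genes called higher in CD103 cells had a BRAF median of 0.88 to 1.40 and an interaction of -0.28 to 0.11, so its sign turned; those called higher in CD11b cells had an interaction of 0.47 to 0.92. Without both BRAF arrays numbered 1, also chosen after seeing the data, the type 1 BRAF median was 2.28, that of the genes higher in CD103 cells 1.35 and their interaction 0.081. The interstitial macrophage median within BRAF was -1.82 to 0.016 when an array was left out, turning sign without BRAF CD103 sample 2. The cause of these shifts was not tested.

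Fitted on the lung arrays alone, 896 genes were called over both genotypes, and 711 of them were among the 867. The smallest limma adjusted p was then 8.89e-06. Within WT 572 were called, 436 of them among the 576, and within BRAF 107 of the 122 were among the 186. Of the named genes, 142 of 157 calls held over both genotypes, 117 of 143 within WT and 36 of 50 within BRAF. A group left with 1 array was assumed to vary like the others. The block altered some single-gene calls: within WT Irf4 passed (limma adjusted p = 0.0353), and within BRAF Cx3cr1 did not (0.0571) and C1qa did (0.0378). With 2 arrays per group and genotype, the number of arrays limits precision, and an interaction that missed the threshold does not show equal differences.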

Other observations

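The lists that separated the lung populations were also read in the other groups of the series. The type 1 list had a mean log2 intensity of 7.85 in WT and 7.90 in BRAF bone marrow-derived cells (n = 3 each), and of 8.09 in WT and 7.67 in BRAF liver CD11b cells (n = 2 each). These levels were close to those of lung CD11b cells, at 8.32 in WT and 8.10 in BRAF, and below lung CD103 cells, at 10.81 and 10.47. The type 2 list had a mean of 9.18 and 8.77 in bone marrow-derived cells and of 9.38 and 9.22 in liver CD11b cells, between lung CD103 and WT lung CD11b cells.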
